A study of Danio rerio with 6 samples.

Results

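Ion channel genes were followed through RNA sequencing of laser-captured tubule cells of the zebrafish embryonic kidney. The genes were taken from the deposited count table by the start of their names, which covers potassium channel genes (kcn), voltage-gated calcium (cacn) and sodium (scn) channel genes, TRP channels, CLC chloride channels and transporters, HCN channels, anoctamins, P2X receptors, ryanodine receptors and IP3 receptors. The names matched 120 of 10022 rows, and kcnj1a.1 and clcnk were left out, which leaves 118 genes. By the sites for which each gene or its mammalian counterpart is known, 10 were classed as epithelial, 89 as neuronal or muscle and 19 as broadly expressed. A TRPC4-binding protein (trpc4apa) matches the name rule without being a channel, and it was kept in the broad class.

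The study compared 3 control libraries, epcam+/+, with 3 libraries of homozygous epcam hi2151 mutants. Epcam encodes an adhesion molecule of epithelial cells. All 6 libraries carried Tg(wt1b:GFP) and Tg(cdh17:GFP), reporters known to mark the glomerulus with the adjoining tubule and the pronephric tubule with its duct. The labels name the distal pronephric tubule at 48 hours post fertilization as the source. Nothing in the sources used here says how many embryos went into a library, and p-values cover the spread between these 6 libraries, some of which may be technical.

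Ion channels are gated pores through which potassium, sodium, calcium or chloride crosses a membrane down its gradient. Neurons and muscle fibres use voltage-gated sodium, calcium and potassium channels to fire and end action potentials, and ryanodine receptors to release stored calcium. Kidney tubule cells rely on a different set, among them inwardly rectifying potassium channels that recycle potassium beside the sodium pumps and ion cotransporters, and CLC proteins of the endosomes or the basolateral membrane.

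The libraries differed in depth and in content. Total counts ran from 188022 to 746232 over the control libraries and from 126861 to 250714 over the mutant libraries. The targeted gene epcam had 10, 15 and 10 counts in controls 1, 2 and 3 and 0 counts in each mutant. Controls 1 and 2 carry one project code in their library identifiers, and control 3 shares its code with the mutants. Control 3 stood apart by its liver, gut and yolk genes, with a summed level of 114465 CPM (counts per 1000000 of the library total) against 575 to 13749 in the other libraries, and by its keratinocyte genes, with 44436 against 1021 to 3424. Control 1 stood apart by its skeletal muscle genes, with 33907 against 1292 to 15432. Genes of the pronephric tubule summed to 12684, 10676 and 856 CPM in controls 1, 2 and 3 and to 10474, 2081 and 5030 in mutants 1, 2 and 3, so this sum was lowest in control 3 and mutant 2. In whole captures of this kind, fewer cells of a type and less RNA per cell cannot be told apart.

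The clearest pattern was in the neuronal or muscle channels, which together took a larger part of every mutant library than of any control library. Their 89 genes summed to 1702, 1572 and 3436 CPM of the library total in controls 1, 2 and 3, and to 7791, 13140 and 10035 in mutants 1, 2 and 3. The groups did not overlap, and the mutant mean of 10322 ± 2686 (SD, n = 3) was 4.62 times the control mean of 2237 ± 1041 (SD, n = 3). Against control 3 alone, the library of the mutants' own project, the mutant mean was 3.00 times as high. With TMM scaling the groups still did not overlap, and the mutant mean was 3.15 times the control mean and 2.21 times control 3. Without the most abundant member of each library the sums were 1459, 1142 and 3000 CPM over controls 1, 2 and 3 and 6717, 10334 and 9397 CPM over mutants 1, 2 and 3. The members detected, with a count above 0, numbered 49, 43 and 65 of 89 in controls 1, 2 and 3 and 69, 73 and 84 in mutants 1, 2 and 3, although controls 1 and 2 were the deepest libraries.

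The 10 epithelial channels did not show this separation. They summed to 864, 678 and 1287 CPM in controls 1, 2 and 3 and to 1417, 843 and 985 in mutants 1, 2 and 3. The groups overlapped, with means of 943 ± 312 and 1082 ± 299 (SD, n = 3 each). With TMM scaling the direction turned, to 1132 ± 260.1 CPM in the controls and 904 ± 351 CPM in the mutants, again with overlap. The 19 broadly expressed genes summed to 398, 1106 and 1489 CPM in controls 1, 2 and 3 and to 3420, 1852 and 1360 in mutants 1, 2 and 3, with mutant 3 below control 3.

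**Figure D1:**
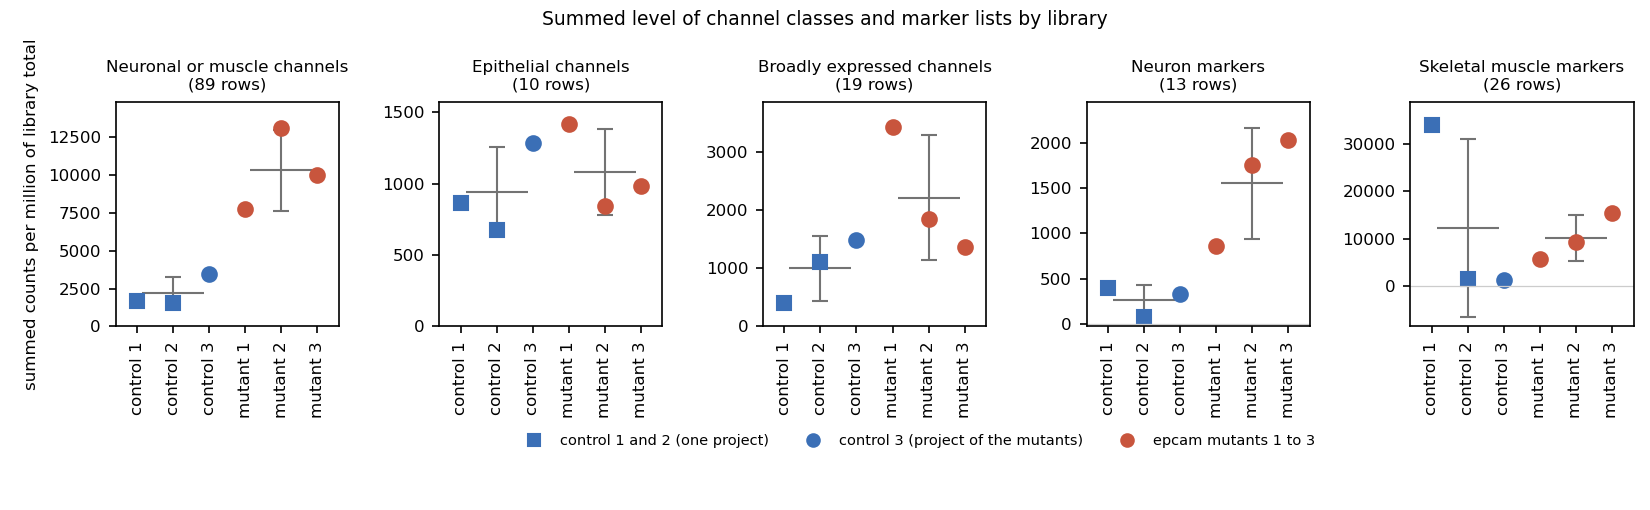
Summed level of 3 channel classes and 2 marker lists in each library, in CPM of the library total; squares are the controls of one project, circles the control and mutants of the other, and grey bars the group mean ± SD (n = 3). All 3 mutants lie above all 3 controls for neuronal or muscle channels and for neuron markers, and the groups overlap in the other panels.

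Gene by gene, the mean CPM was higher in the mutants for 69 of the 89 neuronal or muscle channels, for 3 of the 10 epithelial and for 8 of the 19 broad ones, against 47.1% of all rows. These gene-level CPM are scaled by the trimmed mean of M values (TMM), and with library totals as the only scaling the counts were 75, 6 and 9, against 57.1% of all rows. Within the project of control 3 they were 69, 4 and 11, against 63.2% of all rows. All 3 mutants lay above all 3 controls for 24 neuronal or muscle, 2 epithelial and 4 broad channels, 30 of 118 in all, where the share over all rows was 11.2%. All 3 mutants lay below all controls for 1 channel gene, kcnip1b, which had few counts in the mutants, where the share over all rows was 6.08%. Of the 49 channel genes that passed the filter on low counts described next, 17 had all mutants above and 0 had them below. Over all rows that passed this filter the shares were 12.8% above and 9.41% below.

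No single channel gene passed the test across all genes. With Benjamini-Hochberg adjustment over all rows tested, the quasi-likelihood test of edgeR called 0 of the 3869 rows that passed the filter on low counts (0.0%), and 49 of the 118 channel genes were among those rows. At an unadjusted p under 0.05 there were 9 channel genes higher in the mutants and 0 lower, where the share of all rows tested was 8.5% higher and 4.96% lower. limma-voom also called 0, with 19 channel genes at an unadjusted p under 0.05 against 14.3% of all rows. DESeq2, run as an alternative, called 6 of the 104 channel genes with an adjusted p (5.77%). All were higher in the mutants, where it called 3.68% of rows higher and 0.703% lower. These were trpm1a (adjusted p = 0.00802), cacna1i (0.0148), trpm5 (0.0166), KCNK4 (0.0219), KCNG2 (0.00163) and kcnh2a (0.0494). The authors' deposited table of differentially expressed genes, made with DESeq2, holds 3.78% of all rows and 4 channel genes, or 3.39% of the 118. These 4 are among the 6, with false discovery rates of 0.0114 for trpm1a, 0.0165 for cacna1i, 0.0194 for trpm5 and 0.0246 for KCNK4. The median edgeR log2 fold change, mutant over control, was 1.57 over the 34 neuronal or muscle channels tested, -0.42 over the 7 epithelial ones, 1.2 over the 8 broad ones and -0.10 over all rows tested. A gene could pass the filter through 1 group alone, so these medians describe the tested genes only. In the edgeR fit without the filter they were 2.42 over 89 neuronal or muscle, -0.29 over 10 epithelial and -0.58 over 19 broad channels. The broad median thus changed sign, and the median over all rows was -0.17.

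Pore-forming subunits of voltage-gated calcium channels let in the calcium that triggers transmitter release and muscle contraction. Their 15 genes summed to 83.3, 119 and 1042 CPM in controls 1, 2 and 3 and to 1817, 2160 and 1635 in mutants 1, 2 and 3. All mutants lay above all controls, and control 3 stood about midway between the other controls and the mutants. With TMM scaling control 3, at 1152 CPM, came just below mutant 3, at 1172 CPM. The mutant mean was then 1.34 times control 3. The family's leading difference was in cacna1i (chr3:28951425-29247588 on GRCz10), a low-voltage-activated T-type channel known from thalamic neurons of mammals. It had 0, 1 and 0 control counts and 25, 16 and 74 mutant counts. With a single control count the ratio is best given over pooled counts, 195 with a 95% interval from 34.4 to 7785 that covers counting error only. It rests on counts from which each library's lowest value was subtracted. The edgeR log2 fold change of cacna1i was 7.17 on those counts and 2.03 on the values as deposited. Its edgeR adjusted p was 0.103, with a range from 0.0148 in DESeq2 to 0.617 on the values as deposited, and it was higher in 3 of 3 mutants.

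Other calcium channel genes showed smaller differences. The P/Q-type gene cacna1aa, a channel of presynaptic terminals, had 10, 1 and 5 control counts and 15, 25 and 30 mutant counts, which is 17.8 ± 14.3 against 110 ± 45.9 CPM (SD, n = 3 each). All its mutant CPM were above all its control CPM, and its log2 fold change was 2.72 ± 1.23 (SE; edgeR adjusted p = 0.363). The R-type gene cacna1eb had 9, 0 and 74 control counts and 42, 83 and 64 mutant counts, and in CPM control 3 lay above mutants 1 and 3. The T-type gene cacna1hb, with 0, 0 and 15 against 8, 0 and 14 counts, showed no difference beyond its spread. Of the 15 pore genes, 5 had all mutants above all controls, against 11.2% of all rows. These were the N-type cacna1ba, the L-type cacna1c and cacna1fa, the latter known from photoreceptor synapses, besides cacna1aa and cacna1i. Among the 6 auxiliary subunits none separated the groups, and cacng2a, which in mammals also ferries AMPA receptors to synapses, had 40, 145 and 3 control counts and 2, 8 and 48 mutant counts.

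Sodium channel pores carry the upstroke of the action potential. Their 6 genes summed to 23.5, 6.70 and 261 CPM in controls 1, 2 and 3 and to 639, 678 and 949 in mutants 1, 2 and 3, without overlap. The most counts fell on scn12aa (chr2:52295271-52427287), with 0, 0 and 6 control counts and 67, 17 and 36 mutant counts. Its mean was 11.8 ± 20.4 CPM in the controls and 191 ± 146 CPM in the mutants (SD, n = 3 each), and its log2 fold change of 4.15 ± 1.93 (SE) had an edgeR adjusted p of 0.379. Against control 3 alone it was 2.41, where the median over all rows tested was 1.16, and controls 1 and 2 hold no count of this gene. The muscle channel scn4aa, with 3, 0 and 1 counts against 6, 16 and 19, and scn8aa, a channel of axons and their initial segments, with 1, 0 and 8 against 23, 10 and 57, also had all mutants above all controls in CPM. All 6 pore genes had a fitted log2 fold change above 0 in the fit without a filter, where 47.3% of all rows did.

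**Figure D2:**
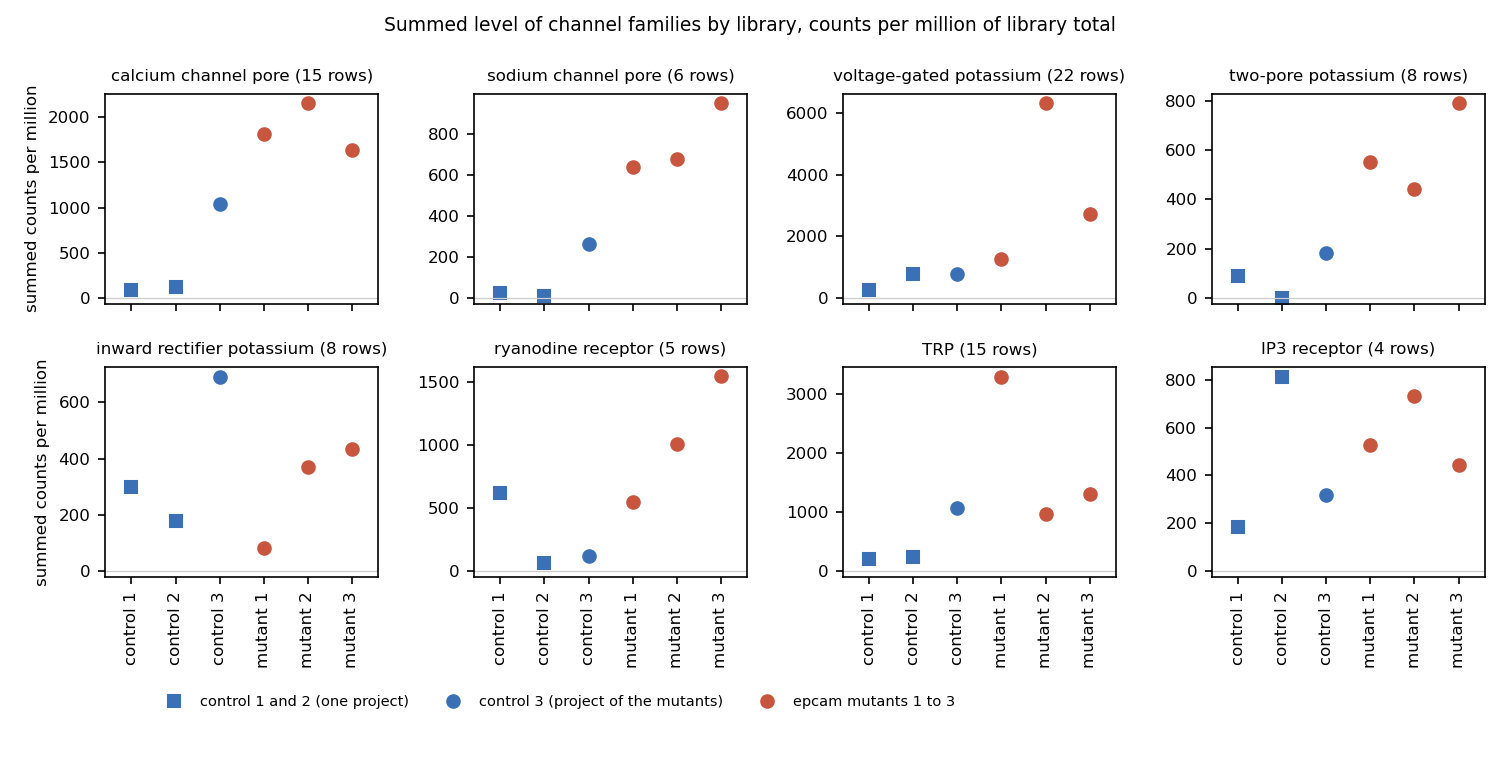
Summed level of 8 channel families in each library, in CPM of the library total; each point is 1 library, with squares and circles for the 2 projects. Mutants lie above all controls for calcium and sodium channel pores, voltage-gated potassium channels and two-pore potassium channels, while ryanodine receptors are also high in control 1 and inward rectifiers are highest in control 3.

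Voltage-gated potassium channels repolarize the membrane after a spike and form the largest family here. Their 22 genes summed to 243, 776 and 782 CPM in controls 1, 2 and 3 and to 1248, 6330 and 2720 in mutants 1, 2 and 3, again without overlap. With TMM scaling the groups came closer, with control 2 at 1053 CPM and mutant 1 at 1154 CPM. A large part of the mutant 2 sum rested on KCNG2 (chr19:11590018-11644465), a silent subunit that alters the gating of its partner channels. It had 0, 1 and 0 control counts and 2, 356 and 47 mutant counts, so mutant 1 lay at the level of 3 counts or fewer. Its ratio over pooled counts was 688, with a 95% interval from 123 to 27249. A second silent subunit, kcns3a, had 0 counts in every control and in mutant 1, 241 in mutant 2 and 2 in mutant 3, which is a level in 1 library rather than in the group. Against a floor of 3 counts per control library its mutant mean was at least 52.9-fold higher, and without mutant 2 both remaining mutants are below 3 counts and no fold remains. KCNA1 (1 of 2), the Kv1.1-type channel of axons, was less concentrated in 1 library, with 1, 1 and 3 counts against 9, 16 and 122. Its CPM averaged 7.22 ± 9.02 in the controls and 167 ± 160 in the mutants (SD, n = 3 each), a log2 fold change of 4.71 ± 1.53 (SE; edgeR adjusted p = 0.195), with all mutants above all controls.

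Further potassium channel genes differed in direction. The delayed rectifier kcnb2 had 0, 9 and 82 control counts and 30, 9 and 56 mutant counts, with control 3 highest in CPM. The ether-a-go-go-related gene kcnh2a, singled out after its values were seen, had 0, 0 and 1 counts against 5, 28 and 13, a ratio over pooled counts of 78.2 (95% interval 13.3 to 3154). The auxiliary gene kcnip1b, also singled out after its values were seen, codes for a calcium-binding partner of Kv4 channels. It had 4, 114 and 23 control counts and 0, 1 and 2 mutant counts, and its ratio over pooled counts, control over mutant, was 27.7 (95% interval 9.27 to 136). DESeq2 gave it an adjusted p of 0.119. Control 2 held most of its control counts, and every mutant lay below 3 counts. In CPM control 1, with 4 counts, lay only slightly above mutant 2, with 1 count. With TMM scaling the 3 potassium channel auxiliary genes, kcnip1b among them, summed to 212, 207 and 153 CPM in controls 1, 2 and 3. In mutants 1, 2 and 3 they summed to 10.7, 130 and 48.6 CPM, below every control, while on library totals the groups overlapped. In the fit without a filter 1 of these 3 genes, 1 of 3 sodium channel auxiliary genes and 1 of 8 inward rectifiers had a log2 fold change above 0, against 47.3% of all rows.

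Two-pore potassium channels are open at rest and set the resting potential. Their 8 genes summed to 86.9, 0 and 181 CPM in controls 1, 2 and 3 and to 552, 441 and 790 in mutants 1, 2 and 3. KCNK4 (chr14:8404454-8449083), in mammals a mechanically gated channel of neurons, had 0, 0 and 1 control counts and 10, 35 and 38 mutant counts. Its ratio over pooled counts was 141 (95% interval 24.6 to 5637) and its edgeR adjusted p was 0.167, with a range over the alternatives from 0.0219 to 0.618. The calcium-activated BK channel gene kcnma1a, which neurons, smooth muscle and tubule cells all use, had 3, 61 and 9 counts against 20, 83 and 39. In CPM mutant 1 lay below control 2, and its log2 fold change was 2.34 ± 1.23 (SE; edgeR adjusted p = 0.453). Without mutant 2 it was 1.00.

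**Figure D3:**
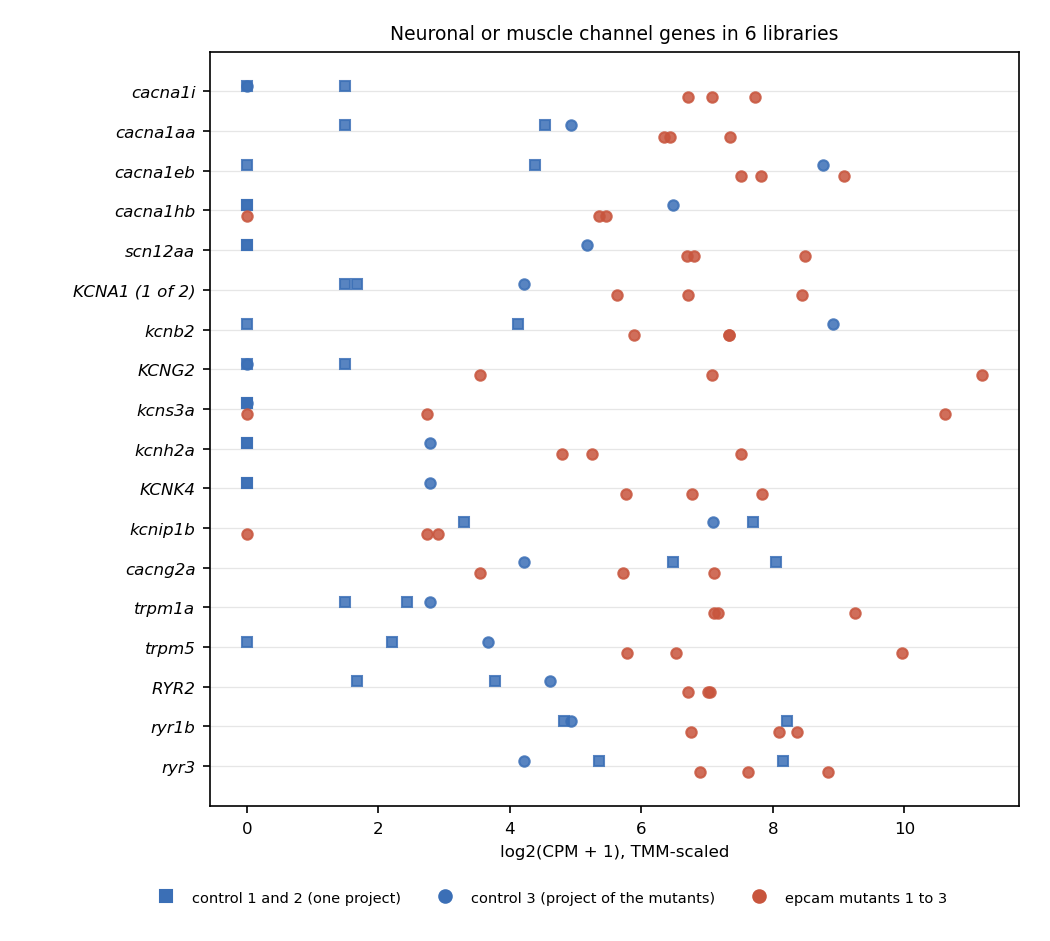
Level of 18 neuronal or muscle channel genes in each library as log2(CPM + 1), with TMM-scaled CPM; each point is 1 library. For cacna1i, KCNK4, KCNG2, trpm1a, trpm5, RYR2 and kcnh2a all 3 mutants lie to the right of all 3 controls, for kcnip1b to the left, and for ryr1b and ryr3 control 1 lies among the mutants.

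TRP channels are cation channels of sensory cells and of many other tissues. The 15 genes summed to 208, 230 and 1064 CPM over controls 1, 2 and 3 and to 3298, 962 and 1308 CPM over mutants 1, 2 and 3, with control 3 above mutant 2. The lowest edgeR p among all channel genes was that of trpm1a (chr7:29042218-29070214), the transduction channel of ON bipolar cells of the retina, which pigment cells also make. It had 2, 1 and 1 counts in controls 1, 2 and 3 and 113, 22 and 48 in mutants 1, 2 and 3. In CPM this is 4.42, 1.82 and 5.88 against 606, 143 and 137, with every mutant far above every control. The log2 fold change was 6.24 ± 1.26 (SE; edgeR adjusted p = 0.103, range over the alternatives 0.00802 to 0.617), and leaving out each library in turn gave 5.11 to 6.64. The gene trpm5 (chr7:48402571-48429274), the calcium-activated channel of taste cells in mammals, had 0, 2 and 2 counts against 185, 14 and 19. It was counted in the neuronal or muscle class, where it held 13.8% of the mutant 1 sum. Mutant 1 held most of its counts, and the log2 fold change of 6.37 ± 1.84 (SE; edgeR adjusted p = 0.143) was 4.0 without that library. The ADP-ribose-gated trpm2 had 0, 4 and 2 counts against 11, 10 and 15, which is 6.35 ± 5.93 against 55.6 ± 11.4 CPM (SD, n = 3 each), with a log2 fold change of 3.28 ± 1.47 (SE; edgeR adjusted p = 0.347). The diacylglycerol-gated trpc6b was present mainly in mutant 1, with 0, 0 and 6 against 134, 0 and 30 counts. Other family members ran the other way without separating the groups, among them trpm7, a channel fused to a kinase and used in magnesium balance, with 0, 0 and 47 control counts and 1, 2 and 1 mutant counts.

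Calcium release channels of the internal stores fell into 2 patterns. The 5 ryanodine receptor genes summed to 616, 61.6 and 122 CPM in controls 1, 2 and 3 and to 546, 1009 and 1544 in mutants 1, 2 and 3, so control 1 lay above mutant 1. The skeletal muscle receptor ryr1b had 134, 15 and 5 counts against 20, 42 and 115, and ryr3 had 128, 22 and 3 against 22, 30 and 160. For both, control 1 lay among the mutants, and without control 1 the log2 fold changes went from 1.16 to 3.01 for ryr1b and from 1.33 to 3.10 for ryr3. Control 1 and mutant 3 were also the libraries with the highest skeletal muscle marker sums, 33907 and 15432 CPM, and the part of muscle RNA in these values was not tested. RYR2, named for the cardiac receptor of mammals, differed from these, with 1, 7 and 4 counts against 24, 16 and 46. Its CPM averaged 12.8 ± 10.7 in the controls and 121 ± 15.2 in the mutants (SD, n = 3 each), with a log2 fold change of 3.36 ± 1.21 (SE; edgeR adjusted p = 0.233) and all mutants above all controls.

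The 4 IP3 receptor genes, which release calcium in nearly all cell types, summed to 183, 813 and 319 CPM in controls 1, 2 and 3 and to 528, 733 and 443 in mutants 1, 2 and 3, with full overlap of the sums. Of the 4 genes, 1, itpr1b, had all mutants above all controls, where the share over all rows was 11.2%. Control 2 carried 400 of the counts of itpr2 and 185 of those of itpr1a. In the other libraries itpr2 had 4 to 28 counts and itpr1a 16 to 43. The gene itpr3, an isoform of epithelia and secretory cells in mammals, had 77, 22 and 31 counts against 19, 13 and 26, a log2 fold change of -0.52 ± 1.03 (SE; edgeR adjusted p = 0.870).

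Chloride-handling genes were led by a gene of the broad class. The row clcn2 (chr2:17217400-17315725), an inwardly rectifying chloride channel of many tissues, had 0, 0 and 2 control counts and 290, 8 and 33 mutant counts. Its ratio over pooled counts was 281 (95% interval 77.2 to 2332), its edgeR adjusted p was 0.181, and mutant 1 held most of its counts. The endosomal exchanger clcn3 had 3, 45 and 18 counts against 0, 4 and 16, a log2 fold change of -1.29 ± 1.46 (SE; edgeR adjusted p = 0.744). The 9 anoctamin genes, which code for calcium-activated chloride channels and lipid scramblases, summed to 445, 432 and 925 CPM over controls 1, 2 and 3 and to 1045, 1159 and 1053 CPM over mutants 1, 2 and 3. These groups did not overlap on library totals, but with TMM scaling control 3, at 1023 CPM, lay above every mutant, at 755 to 966 CPM. The 7 CLC genes summed to 317, 142 and 191 CPM over the controls and to 2084, 205 and 351 CPM over the mutants in the same order, with mutant 2 below control 1.

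Among the epithelial channels, ano9a held the most counts in every library, from 32.7% to 62.5% of the class. It had 214, 316 and 141 counts in controls 1, 2 and 3 and 152, 35 and 96 in mutants 1, 2 and 3. Its mean was 625 ± 183 CPM in the controls and 439 ± 327 CPM in the mutants (SD, n = 3 each), and the groups overlapped because mutant 1, at 816 CPM, was close to the highest control. The log2 fold change was -0.44 ± 0.95 (SE; edgeR adjusted p = 0.882). The annotation places ano9a (chr25:34650660-34677389) over another gene of the table, and in unstranded libraries the reads of overlapping genes cannot be told apart.

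Inward rectifiers classed as epithelial were uneven between libraries. Of the 10 epithelial channels, 5 had their highest CPM in control 3, which had the lowest sum of tubule genes. What part cells other than tubule cells have in these values was not tested. The gene kcnj16, whose mammalian product Kir5.1 joins a partner in the basolateral membrane of the distal nephron, had 41, 124 and 0 control counts and 10, 1 and 19 mutant counts. Its lowest values, in control 3 and mutant 2, came from the libraries with the lowest sums of tubule genes, and the part of tubule content in them was not tested. Its log2 fold change was -1.24 ± 1.44 (SE; edgeR adjusted p = 0.752). Control 3 has no kcnj16 count, so a fold change against that library alone has no measured size. The gene kcnj13, a Kir7.1-type channel that zebrafish pigment cells use in stripe formation, had 105, 8 and 26 counts against 0, 22 and 47. The ROMK-type copies kcnj1a.2 and kcnj1a.5 had 0, 0 and 12 against 0, 1 and 16 and 0, 0 and 26 against 0, 10 and 3 counts. By name and position on chromosome 18 they are copies in one cluster with kcnj1a.1, and as no sequence was compared and the counting could split reads between copies, these values are uncertain. The genes left out had 39, 6 and 0 against 24, 16 and 37 counts for kcnj1a.1, the apical potassium channel type of the distal tubule, and 35, 151 and 2 against 40, 1 and 27 for clcnk, the basolateral chloride channel type. Both were low in control 3. In CPM all mutants lay above all controls for kcnj1a.1, and the groups overlapped for clcnk, which was also low in mutant 2.

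The remaining epithelial members included the ones with higher values in mutants. The calcium-activated chloride channel gene ano1 had 0, 0 and 5 control counts and 15, 19 and 21 mutant counts, or 9.80 ± 17 against 88 ± 32.4 CPM (SD, n = 3 each). All mutants lay above all controls, and the log2 fold change was 3.36 ± 1.86 (SE; edgeR adjusted p = 0.461). The value depends on control 3, with 1.56 against that library alone, where the median over all rows tested was 1.16. Without control 3 both remaining controls are at 0 counts and no fold is given. The two-pore channel gene kcnk5b, known for fin overgrowth in zebrafish, had 2, 0 and 1 against 12, 1 and 12 counts, a ratio over pooled counts of 14.2 (95% interval 4.32 to 73.3), and mutant 2, at 6.5 CPM, was barely above control 3, at 5.88 CPM, both with a single count. The calcium-activated potassium channel gene kcnn4 had 0, 0 and 18 counts against 18, 10 and 14, with control 3 highest in CPM. The endosomal exchanger genes clcn5a and clcn5b, of the type mutated in human Dent disease, had 93, 58 and 2 against 26, 1 and 18 and 22, 0 and 11 against 11, 7 and 1 counts. Neither separated the groups, with log2 fold changes of -0.56 ± 1.29 and -0.03 ± 1.57 (SE; edgeR adjusted p = 0.889 and 0.996).

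**Figure D4:**
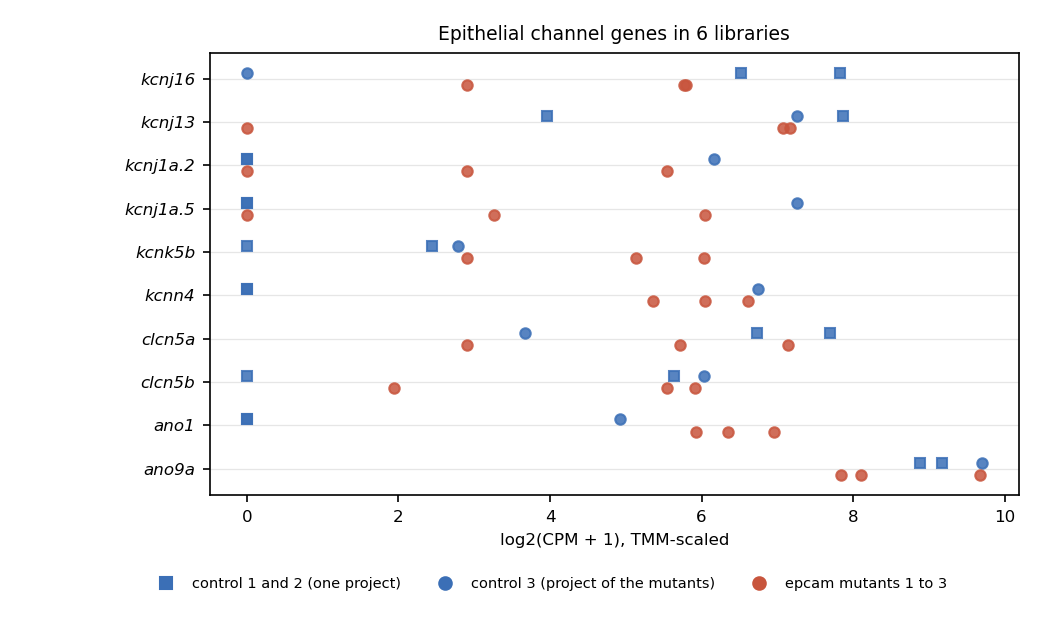
Level of the 10 epithelial channel genes in each library as log2(CPM + 1), with TMM-scaled CPM; each point is 1 library, with squares and circles for the 2 projects. For ano1 and kcnk5b all 3 mutants lie to the right of all 3 controls, and for the other 8 genes the groups overlap.

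Markers of neurons moved with the neuronal or muscle channels. The 13 neuron markers in the table, of 40 listed, summed to 395, 76.4 and 324 CPM in controls 1, 2 and 3 and to 859, 1758 and 2030 in mutants 1, 2 and 3. The splicing factor gene nova1 had 0 counts in each control and 8, 14 and 22 in the mutants, and the glutamate transporter gene slc17a6a had 0 in each control and 15, 3 and 4. The transmitter enzyme gene chata had 0 control counts and 0, 16 and 2 mutant counts, while gad2 had 125, 7 and 0 against 3, 0 and 3. Of the 13 markers, 7 had all mutants above all controls and 0 had all mutants below, against 11.2% and 6.08% of all rows. The 3 glial markers summed to 134, 33.5 and 878 CPM over controls 1, 2 and 3 and to 11.6, 142 and 71.8 CPM over mutants 1, 2 and 3. The skeletal muscle markers, 26 of 34 listed, overlapped between the groups. They summed to 33907, 1581 and 1292 CPM in controls 1, 2 and 3 and to 5771, 9183 and 15432 in mutants 1, 2 and 3. The mutant mean was 0.826 times the control mean, and 19 of the 26 had a mean CPM no higher in the mutants. Both values depended on control 1. Without that library 24 of the 26 had a higher mean CPM in the mutants, where 51.9% of all rows did. Against control 3 alone the mutant mean was 7.84 times as high. What part neuronal or muscle RNA has in the channel values was not tested.

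Receptors and channel partners were read beside the pore genes. Of the 37 ligand-gated channels of synapses in the table, 12 had all mutants above all controls and 0 had them below, against 11.2% and 6.08% of all rows. Their summed level was 713, 468 and 2021 CPM in controls 1, 2 and 3 and 1858, 4564 and 4399 in mutants 1, 2 and 3, with control 3 above mutant 1. The edgeR fit tested 10 of them, 8 with a log2 fold change above 0 and 2 below (median 2.51), where 47.8% of all rows tested were above 0, and the NMDA receptor gene grin1b had 0, 2 and 0 counts against 12, 23 and 43 (adjusted p = 0.115). Of the 38 genes for proteins that bind, anchor or regulate channels, 23 were tested, 10 above 0 and 13 below (median -0.27). The 38 genes summed to 3310, 4516 and 5350 CPM in controls 1, 2 and 3. In mutants 1, 2 and 3 the sums were 3530, 2538 and 4958 CPM, with overlap. With TMM scaling the mutants, at 2093 to 3554 CPM, lay below all controls, at 4037 to 6131 CPM. Of these 38, 3 had all mutants above all controls and 2 had them below, near the shares over all rows. Among them dpp6a, a Kv4 partner, had 1, 0 and 3 counts against 27, 7 and 47 (edgeR adjusted p = 0.287), and ahnak, a scaffold protein that binds calcium channels, had 155, 388 and 163 against 21, 6 and 30 (edgeR adjusted p = 0.208). In each of these lists 0 genes passed the edgeR threshold. At an unadjusted p under 0.05 there were 4 synaptic receptor genes higher and 0 lower, and 1 partner gene higher and 1 lower, where 8.5% of all rows tested were higher and 4.96% lower. DESeq2 called 3 receptor genes and 1 partner gene, all higher, where it called 3.68% of all rows higher. The partner counts are close to or below these shares.

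The channel genes were sparse in these libraries. The share of members with a count above 0 was 55.1%, 49.2% and 78.0% in controls 1, 2 and 3 and 78.8%, 83.9% and 94.9% in mutants 1, 2 and 3, while over all rows it was 72.3%, 74.6% and 74.4% against 78.6%, 77.5% and 90.5%. Of the 118, 22 were detected in all 6 libraries, 18.6% against 33.5% of all rows. A count of 10 or more was reached in at most 1 library by 31 of them, or 26.3%, close to the 26.7% of all rows. The median share of a gene's summed CPM that lay in its top library was 56.2%, against 53.6% over all rows. In 5 genes (clcn7, clcn1a, ano2, kcnk18 and kcns3a) no control had a count, which is 4.24% of the members against 4.88% of all rows. A floor of 3 counts stood for 5.46 to 17.6 CPM in the controls and 8.58 to 19.5 CPM in the mutants.

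Channel genes are long, and the long genes of the table took a larger share of the mutant libraries. The annotated span had a median of 54953 bases over the members against 22584 over all rows. Genes of over 100 kb took 107710, 109278 and 97318 CPM in controls 1, 2 and 3 and 135718, 145853 and 168862 in mutants 1, 2 and 3. In the fit without a filter, 86.2% of the 29 neuronal or muscle channels of over 100 kb had a log2 fold change above 0, against 53.2% of the other rows of that span. The values were 84.4% of 32 against 49.0% for 30 to 100 kb, 61.5% of 13 against 44.4% for 10 to 30 kb, and 73.3% of 15 against 45.7% below 10 kb, the latter 2 bins being thinly filled. Within the project of control 3 the median log2 fold change of all rows was highest, at 1.73, below 10 kb. It was 1.06 for 10 to 30 kb, 1.05 for 30 to 100 kb and 1.13 over 100 kb. The trend over gene span was also taken out of the main fit. The median log2 fold change of the 34 neuronal or muscle channels tested was then 1.59, where it had been 1.57. What part gene span has in the channel values was not tested beyond this.

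**Figure D5:**
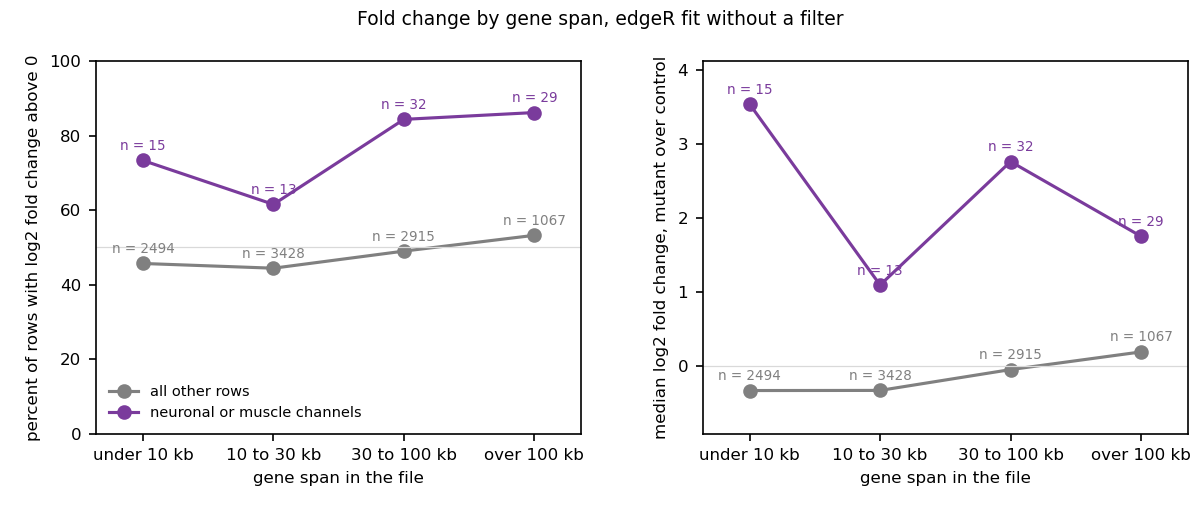
Share of genes with a log2 fold change above 0 (left, percent) and median log2 fold change, mutant over control (right), by annotated gene span, in the edgeR fit without a filter; purple points are neuronal or muscle channels, grey points all other rows, and n is the number of rows. The purple points lie above the grey ones in all 4 span bins, 2 of which hold under 20 channel genes.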

How the data were processed

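The deposited table holds whole-number counts per gene, which its name calls filtered raw counts. The submitters' processing notes name the build GRCz10, with TopHat2 2.1.0, Trimmomatic 0.36.0 and DESeq2 as tools. The counting tool and the row filter are not given in the sources used here. Per the labels' protocols, RNA was treated with DNase, reverse transcribed with random and oligo(dT) primers and amplified as whole cDNA, and the libraries were unstranded. The second deposited file is the authors' own list of differentially expressed genes with a false discovery rate, an adjusted p-value, for each gene.

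Only control 2 reaches 0, and the lowest values of the libraries differ (11, 0 and 32 in controls 1, 2 and 3 and 30, 31 and 17 in mutants 1, 2 and 3), each shared by 9.46% to 27.7% of the rows. This was read as an added constant, which no label states, and was subtracted before every step. A gene of low counts can therefore be listed at 0 by this step. The ratios over pooled counts and the main fold changes rest on it. With edgeR on the subtracted counts the log2 fold change was 6.24 for trpm1a, 6.37 for trpm5 and 7.50 for clcn2. On the values as deposited it was 2.28, 2.44 and 2.99 for the same genes.

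The main test was edgeR 4.0.16 (quasi-likelihood, robust, without the legacy setting, TMM scaling, filterByExpr by group, Benjamini-Hochberg over all rows tested, threshold 0.05), on 3 controls against 3 mutants without covariates. Each SE of an edgeR log2 fold change is its absolute size divided by the square root of the F statistic of that test. It is not a standard error estimated by the model. The scripts were tested on simulated data. Alternatives used DESeq2 1.42.0, limma-voom (limma 3.58.1), other scalings, no filter, the values as deposited, a replicate block, a project term, the project of control 3 alone and each library left out. The span trend, TMM scaling of the sums and the recounts of genes with a higher mean CPM were added after seeing the data. Gene-level CPM are TMM-scaled, and sums over lists are per 1000000 of the library total. For genes with 1 to 3 counts in a group, the ratio of pooled counts has an exact 95% interval. Since amplified copies are no independent molecules, the intervals and the floors hold for counting error alone. Counts are not adjusted for gene length, so levels are not compared between genes.

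The members, classes and lists were chosen with earlier results of these data known. The text names all epithelial members, the 6 neuronal or muscle and the 6 broad members with the highest mean CPM, and the 10 tested members with the lowest p in each direction, and every other member it names was picked after its values were seen. Of the 118 members, 7 overlap another gene of the table, among them ano9a, cacng2a, ryr3 and trpm7. With 3 against 3 libraries an exact permutation test cannot go below p = 0.1, so none was run on sums.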

Additional observations from a re-analysis of the deposited data

How the results depend on the processing

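The edgeR count of channel genes called stayed at 0 under every scaling, without a filter, on the values as deposited, with the project term, within the project of control 3, with the replicate block and without each library (0 to 0), and DESeq2 called 6. Over all rows the count was 0 in the main fit and without each library (0 to 0), 349 with DESeq2 (56 of them lower) and 9, all lower, with the project term. Same-numbered libraries showed no visible pairing, with deviations that correlated at 0.0716, -0.0492 and 0.0250. Whether they were handled together was not tested. With the replicate block the median log2 fold change was 2.96 for neuronal or muscle and -0.43 for epithelial channels.

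The neuronal or muscle median of 1.57 was 3.24 with limma-voom and 1.45 to 3.81 without each library in turn, highest without control 3. On the values as deposited, where all 89 genes were tested, it was lower, at 0.94. The number of such genes with a higher mean CPM in the mutants stayed between 66 and 75 of 89 without each library. The epithelial median of -0.42 reversed to 0.18 on the values as deposited and ranged from -0.76 to 0.13 without each library, being above 0 without control 1 or control 3. The epithelial count of 3 became 6 with library totals and 6 on the values as deposited, and 3 to 6 without each library. The 17 tested channel genes without overlap between groups became 31 over all members, and 17 to 29 without each library, with 29 without control 3. With a library fewer, groups separate more easily, so this range is no check on stability. On the log2 scale the ratio of mutant to control sums, 2.21 for neuronal or muscle and 0.20 for epithelial channels, was 1.66 and -0.33 with TMM scaling. With the trend over gene span taken out, the median was 1.59 for the 34 neuronal or muscle and -0.26 for the 7 epithelial genes tested.

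Single genes reversed where their change was within its error, and the cause was not tested. On the values as deposited the log2 fold change was 0.71 for cacna1hb, 0.40 for kcnb2, -1.02 for itpr1a, 0.043 for clcn5b, -0.095 for ryr1b, 0.32 for kcnj1a.5 and 0.71 for kcnj1a.2. With the project term, and then in the project of control 3 alone, it came to -0.50 and -0.46 for cacna1eb, 1.85 and 1.91 for cacng2a, -0.73 and -0.66 for kcnn4, 1.88 and 1.93 for itpr2, and 2.35 and 2.43 for clcn5a. For kcnj16 the same fits gave 6.71 and 6.08, sizes set by the prior count of the fit, since control 3 has no count of it. In the project of control 3 alone the median log2 fold change over all rows tested was 1.16. With limma-voom the log2 fold change was 2.08 for cacna1hb, 3.00 for kcnb2, 0.87 for clcn5b and 0.022 for itpr2. With the replicate block it was 1.38, 2.14, 0.43 and 0.33 for the same genes. For cacna1hb it was 0.12 with upper-quartile scaling and 0.15 without a filter, for itpr1a -0.15 without a filter, and for clcn5b 0.11 with RLE scaling, 0.15 with upper-quartile scaling and 0.015 with DESeq2. Leaving out each library in turn changed the sign of some genes, with ranges of -0.74 to 6.29 for cacna1hb, -1.07 to 3.89 for kcnb2, -1.75 to 0.25 for cacng2a, -0.59 to 0.97 for itpr1a, -0.76 to 0.61 for clcn5b, -1.14 to 0.073 for kcnj13, -1.71 to 2.48 for itpr2, -1.03 to 0.43 for kcnj1a.2 and -1.79 to 0.15 for clcn5a. The 6.29 for cacna1hb came without control 3, the only control with counts of this gene. Its size was thus set by the prior count of the fit. With 126861 to 250714 counts in the mutants and 188022 in control 3, 3 counts stand for 8.58 to 19.5 CPM there. Differences below that level were not detectable.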
